A study of Mus musculus with 6 samples.

Results

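The lysosomal gene set held 41 genes, of 18193 genes with a probe set of their own. It covers hydrolases and helper proteins, most of the lysosome lumen, and proteins of the lysosomal membrane, without the cathepsins and the proton pump. Its members were named by a fixed list of gene symbols, and each was represented by the brightest of the probe sets that the platform annotation paired with that gene alone. All 41 were measured, all lay above the median level of the probe sets, and none fell below an intensity of 16 on any array. Values are array intensities on a linear scale, and differences are log2 values of the knockin minus the wild type.

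The samples were bone marrow macrophages from knockin (KI) mice and from wild-type (WT) mice, all of strain C57BL/6 per the labels. Both groups were cultured for 24 hours with M-CSF at 44 ng/ml, which keeps macrophage precursors alive, and RANKL at 100 ng/ml, the cytokine that starts osteoclast formation. The series title names the IVVY motif in RANK, the receptor for RANKL, while which residues the knockin changes, and the age and sex of the mice, are not stated in the labels. Each genotype had 3 arrays, and nothing in the labels says whether these came from separate mice or cultures, so p-values measure the spread between these arrays, which may be technical.

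Lysosomes are acidic compartments in which many hydrolases, each specific for a kind of bond, take glycoproteins, glycosaminoglycans, lipids, proteins and nucleic acids apart. A defect in a single enzyme lets its substrate pile up, which is the basis of the lysosomal storage diseases. Macrophages use lysosomes to digest what they engulf, and osteoclasts use lysosome-related vesicles to release acid and enzymes onto bone. Transcription factors of the MiT/TFE family, among them TFEB, TFE3 and MITF, are known to bind an E-box, CACGTG, often in the form TCACGTG, near the start of many lysosomal genes.

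Promoters of the members were searched for these letters because those factors are known to bind near many lysosomal genes. RefSeq promoter windows of build GRCm38.p6, 250 bases before to 50 bases after the start site, were found for 37 of the 41 members, and Galns, Hgsnat, Asah1 and Npc1 had none in the table. TCACGTG, read on both strands, stood in 11 of 37 member windows (29.7%), against 1160 of 27025 genes with a window (4.29%). The shorter CACGTG, which is part of TCACGTG, stood in the same number of member windows, against 8.09% of all genes. The share was 28% in the 25 windows of members that were higher in KI and 27.3% in the 11 windows of members that did not pass the test. Of the 7 members that were at least 2-fold higher in KI, only Lgmn had a match. Hgsnat had no window, and Galc, Lipa, Pla2g15, Ppt1 and Lamp2 had no match in theirs. A match describes the letters in the window and is neither a shown binding site nor a cause of a difference.

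The sequences below were picked from the windows with a match. They come from the membrane proteins with several E-boxes, higher members of 3 enzyme classes, the member that fell, and Gla, which did not pass. They run 5′ to 3′ on the gene's strand, the capitals mark each TCACGTG match on either strand, and every match lies before the start site.
Lamp1: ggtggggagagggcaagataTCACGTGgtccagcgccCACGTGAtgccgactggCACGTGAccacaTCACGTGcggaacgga
Cln3: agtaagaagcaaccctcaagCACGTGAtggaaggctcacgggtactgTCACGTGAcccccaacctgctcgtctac
Mcoln1: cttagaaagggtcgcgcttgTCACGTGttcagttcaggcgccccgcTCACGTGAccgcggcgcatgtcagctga
Lgmn: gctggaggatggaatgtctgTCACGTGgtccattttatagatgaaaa
Sgsh: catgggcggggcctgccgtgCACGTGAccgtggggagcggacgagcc
Sumf1: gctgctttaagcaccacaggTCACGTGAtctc
Arsa: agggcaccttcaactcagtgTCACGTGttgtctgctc
Gla: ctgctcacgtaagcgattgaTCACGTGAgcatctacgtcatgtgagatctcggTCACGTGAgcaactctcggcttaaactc

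These stretches lie at chr8:13159079-13159160 on the plus strand for Lamp1, chr7:126583331-126583405 on the minus strand for Cln3, chr8:3500427-3500500 on the plus strand for Mcoln1 and chr12:102439116-102439162 on the minus strand for Lgmn. The others lie on the minus strand, at chr11:119355513-119355559 for Sgsh, chr6:108185584-108185615 for Sumf1, chr15:89477425-89477461 for Arsa and chrX:134601173-134601253 for Gla. Lamp1 had 4 E-boxes within 62 bases of its start site, the highest number of any member. Cln3, Mcoln1 and Gla had 2 each, and the other members with a match, Glb1, Gaa and Naglu among them, had 1.

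Lysosomal genes were mostly higher in KI cells. Of the 41 members, 29 rose (70.7%), 1 fell (2.44%, Arsa) and 11 did not pass an adjusted p of 0.05 in limma's test over all 18193 genes, while 26.8% of all genes passed, 11.9% higher and 14.9% lower. Among the 10941 genes above the median level, where all members lie, 17.8% were higher and 23.1% lower. The median log2 difference of the members was 0.51, against -0.0013 over all genes, and single members ranged from -0.56 to 1.51. The 29 that rose were 1.22 to 2.85 times as high in KI as in WT, with a median of 1.48, and 7 of them passed a 2-fold difference, which 2.68% of all genes did in that direction and 2.59% in the other, where no member did. All KI arrays lay above all WT arrays for 35 members, below them for 3 (Arsa, Arsb and Npc2), and overlapped with them for 3 (Ids, Gm2a and Smpd1), while 45.2% of all genes did not overlap, 20.5% upward and 24.7% downward.

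Single arrays and the scaling moved these counts. KI 1 had the highest intensity of the 6 arrays for 31 members and WT 1 the lowest for 34. Of the 29 that rose, KI 1 was highest for 24 and WT 1 lowest for 27. The same arrays were the extremes over all genes above the median level. On their first principal component (83.4% of the variance), KI 1 lay at 39.1 and WT 1 at -47.9. Leaving out 1 array at a time gave 12 members higher without KI 1, 15 without KI 2, 5 without KI 3, 27 without WT 1, 17 without WT 2 and 27 without WT 3, with 1 lower each time. In the same order, 6.88%, 7.66%, 4.91%, 11.0%, 7.20% and 9.61% of all genes were higher. Those lower made up 8.30%, 9.75%, 6.14%, 13.1%, 10.8% and 9.85%. The members' median ran from 0.39 without WT 1 to 0.57 without WT 3. All 29 stayed above 0 in each of these 6 fits, but only Galc, Hgsnat, Npc1, Sgsh and Sumf1 passed in all 6, as did Arsa in the other direction. The arrays were also scaled to hybridisation spike-in probe sets. A newer set moved the median of all genes to -0.20 and that of the members to 0.31. With it 17 of the 41 members were higher and 2 lower, where 7.04% of all genes were higher and 27.2% lower. An older set moved these medians to -0.51 and -0.02. With it 4 of the 41 members were higher and 3 lower, where 2.31% of all genes were higher and 45.1% lower. Such a scaling moves all genes of an array alike, so it leaves the gap between the members' median and that of all genes nearly fixed by construction. Of all genes called, 44.5% were higher in KI as deposited, 20.6% under the newer and 4.88% under the older spike-in scaling. With the number that each sample's description carries as a covariate, 2 members were higher (Npc1 and Sgsh) and 1 lower (Arsa). In that fit 3.89% of all genes were higher and 5.30% lower. The members' median was 0.57, and all 29 that rose stayed above 0. The number partly runs with genotype, so this fit cannot fully separate the effects of both.

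**Figure D1:**
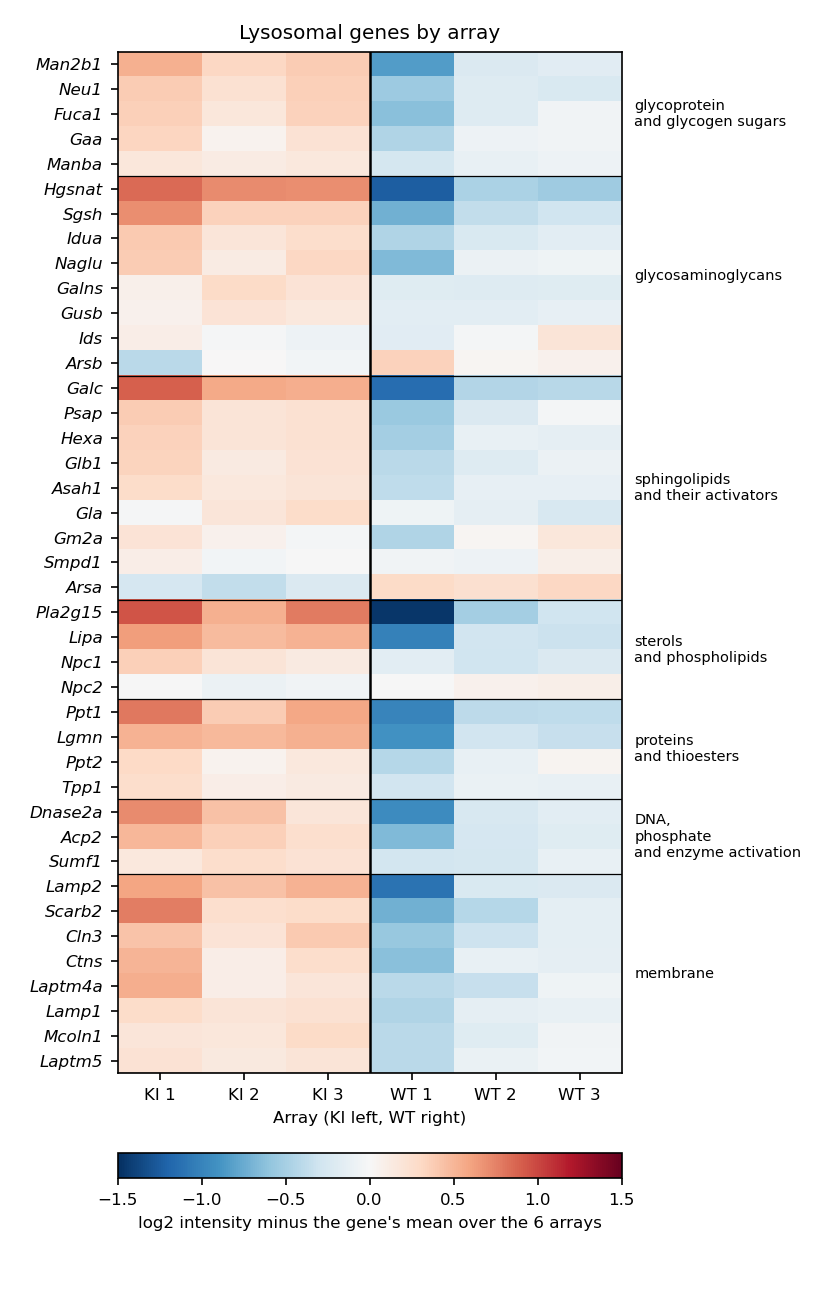
Log2 intensity of the 41 lysosomal genes (down the page, by substrate class) on the 3 KI arrays (left) and the 3 WT arrays (right), each minus the gene's mean over the 6 arrays; red is above and blue below that mean. KI 1 was highest for 31 genes and WT 1 lowest for 34, and Arsa, Arsb and Npc2 run the other way.

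**Figure D2:**
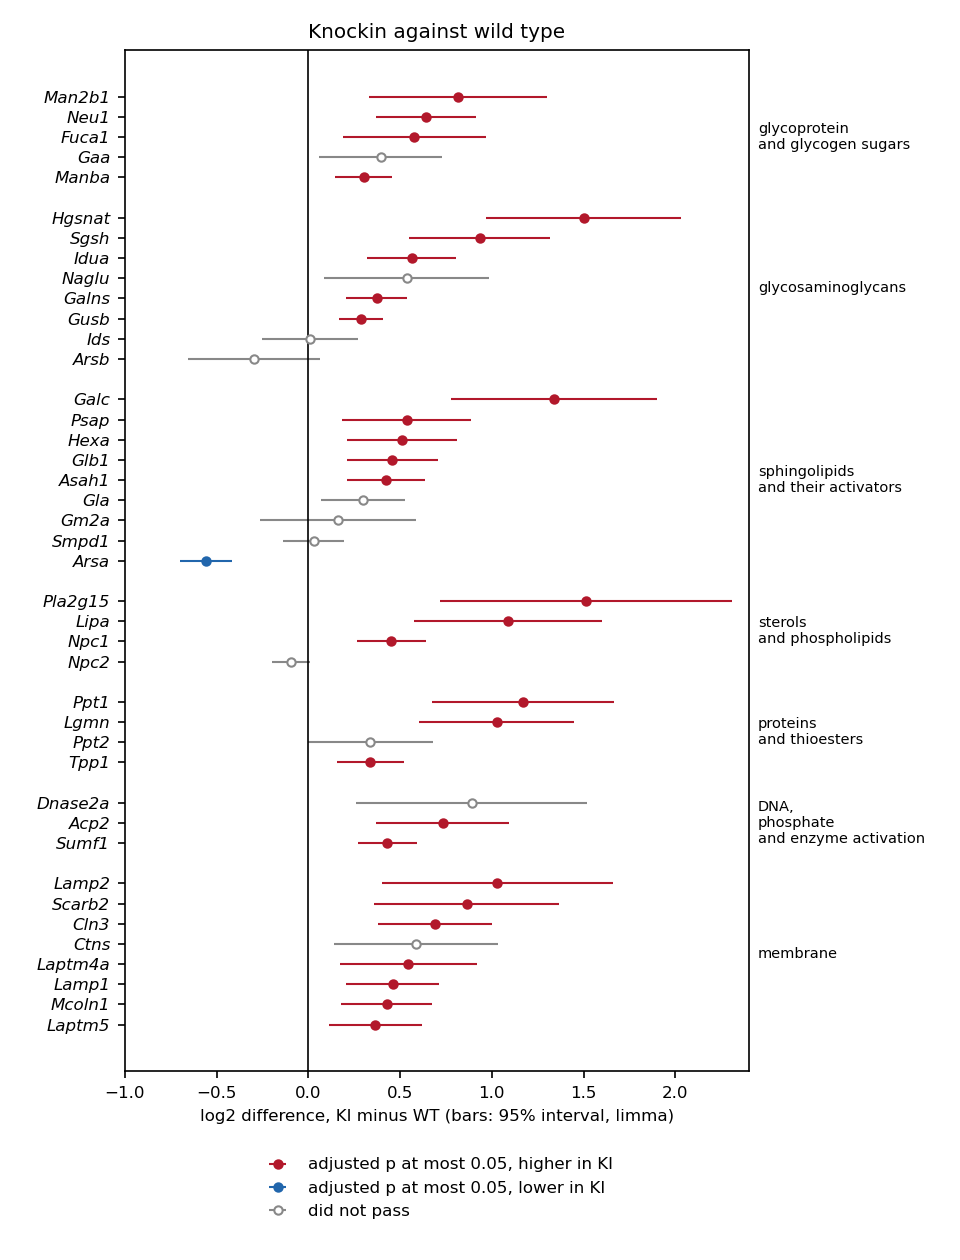
Log2 difference, KI minus WT, of each of the 41 genes as deposited, with limma's 95% interval as a bar. The 29 filled red points were higher in KI, the filled blue point (Arsa) was lower and the 11 open points did not pass. Under the older spike-in scaling 4 were higher and 3 lower, where 2.31% of all genes were higher and 45.1% lower.

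Markers of other states moved in the same cultures. The summed intensity of 5 macrophage markers was 99713 to 103632 on KI arrays and 67415 to 83879 on WT arrays, and 4 of them were higher in KI (Csf1r, Adgre1, Itgam and Cd14). That of 5 osteoclast markers was 28374 to 31344 on KI arrays and 62284 to 69779 on WT arrays, and all 5 were lower in KI: Acp5 by a log2 difference of -0.92, Ctsk by -0.70, Nfatc1 by -0.997, Dcstamp by -1.21 and Mmp9 by -2.89. Markers of both kinds were bright in both genotypes. KI 1 had the highest macrophage sum and the lowest osteoclast sum of all arrays, and WT 1 the reverse. Neutrophil markers summed to 19966 to 38778 on KI arrays and 14276 to 18037 on WT arrays, with 1 of 5 higher (S100a8), and the stromal sum was 2105 to 8274 on KI arrays and 2013 to 6915 on WT arrays, with none of 3 called. The 2 B cell markers (sums of 68.0 to 82.3 in KI and 70.6 to 83.7 in WT), the 3 T cell markers (203 to 231 in KI and 209 to 224 in WT) and the erythroid marker Hba-a1 (23.2 to 25.8 in KI and 21.6 to 23.8 in WT) were dim, and none of them was called; the median intensity of an array was 83.0 to 84.8. The part of these shifts in the lysosomal differences was not tested, and in bulk samples a change in the share of a cell type and a change in RNA per cell cannot be told apart.

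Enzymes that remove sugars from glycoproteins and glycogen rose in 4 of 5 cases, with a class median of 0.58. Beside this and each class below, 11.9% of all genes were higher and 14.9% lower. Among genes above the median level these shares were 17.8% and 23.1%. Man2b1, the lysosomal alpha-mannosidase, had intensities of 15650.0, 13435 and 14181 on the KI arrays and of 6057, 9355 and 9679 on the WT arrays. The groups did not overlap, and WT 1 lay well below the other WT arrays. The log2 difference was 0.81 (SE 0.19, adjusted p = 0.032 by limma), a 1.76-fold rise. Neu1, the sialidase that takes off terminal sialic acids, averaged 2065 ± 114 in KI and 1331 ± 169.9 in WT (SD, n = 3 each) and rose by 0.64 (SE 0.11, adjusted p = 0.012). Fuca1, an alpha-fucosidase, rose by 0.58 (SE 0.16, adjusted p = 0.046) and Manba, the beta-mannosidase, by 0.30 (SE 0.06, adjusted p = 0.022). Gaa, the acid alpha-glucosidase that degrades glycogen, averaged 1792 ± 172 in KI and 1371 ± 202 in WT and did not pass (0.39, adjusted p = 0.086), although all KI arrays lay above all WT arrays.

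Neu1 was the 1 member of this class that still passed without KI 1, KI 2 or WT 2, where Man2b1, Manba and Fuca1 did not, and without KI 3 none of the 4 passed (adjusted p from 0.056 to 0.13); all 4 passed without WT 1 or WT 3. Under the older spike-in scaling Manba turned to -0.23 and Gaa to -0.14, and none of the class passed; under the newer one Manba and Fuca1 lost their calls.

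The glycosaminoglycan enzymes, which take heparan, dermatan, keratan and chondroitin sulfate apart, held a large rise beside members that did not pass. Hgsnat, a membrane-bound transferase that acetylates heparan sulfate so that its next sugar can be removed, had intensities of 15148, 13687 and 13588 in KI and of 3561, 6039 and 5790.2 in WT. Every KI array was more than double any WT array. It rose by 1.50 (SE 0.21, adjusted p = 0.0080), or 2.83-fold. Sgsh, the sulfatase that acts on the same chain, had intensities of 1561, 1223 and 1221 in KI and of 580.5, 742 and 778 in WT. KI 1 stood above the other KI arrays and WT 1 below the other WT arrays, with a wide gap between the groups. The difference was 0.93 (SE 0.15, adjusted p = 0.012), a 1.91-fold rise.

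Idua, the iduronidase, rose by 0.56 (SE 0.10, adjusted p = 0.013), Galns, a sulfatase of keratan sulfate, by 0.37 (SE 0.07, adjusted p = 0.014), and Gusb, the beta-glucuronidase, by 0.29 (SE 0.05, adjusted p = 0.012). Galns had intensities of 1238, 1437 and 1354 in KI, against 1038, 1031 and 1036 in WT, where the arrays lay within a few units of each other. Naglu, which removes the sugar that Hgsnat acetylates, averaged 2672 ± 244.6 in KI and 1869 ± 404 in WT without passing (0.54, adjusted p = 0.083). Ids, the iduronate sulfatase, averaged 4027 ± 256 in KI and 4022 ± 515 in WT, a difference of 0.01 with a 95% interval of -0.25 to 0.27. Arsb, a sulfatase of dermatan and chondroitin sulfate, had intensities of 2253, 3005 and 2904 in KI and of 3818, 3065 and 3126 in WT. The groups did not overlap, but the gap between KI 2 and WT 2 was small and the difference of -0.30 did not pass (adjusted p = 0.19).

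Of the 8 members of this class 5 rose, 0 fell and 3 did not pass, with a median of 0.45. The 5 calls held without any single array except KI 3, where Gusb, Galns and Idua did not pass (adjusted p from 0.056 to 0.064). Under the older spike-in scaling Hgsnat still rose (0.97) and Arsb was lower (-0.83), while Sgsh (0.40, adjusted p = 0.18) and Idua (0.03, adjusted p = 0.92) lost their calls and Gusb (-0.24) and Galns (-0.16) turned; the newer one ended the calls for Gusb and Galns.

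Enzymes and activators of sphingolipid breakdown were the class with a call in each direction, with 5 of 9 higher, 1 lower and 3 not passing (median 0.42). Galc, which removes galactose from the myelin lipid galactosylceramide, had intensities of 4730.1, 3764 and 3721 in KI and of 1152, 1870.2 and 1902 in WT. The lowest KI array was nearly double the highest WT array, and each group had its replicate 1 standing apart, upward in KI and downward in WT. It rose by 1.34 (SE 0.23, adjusted p = 0.012), or 2.53-fold. Arsa, the sulfatase that turns sulfatide into galactosylceramide, the substrate of Galc, was the member that fell. It had intensities of 1912, 1755 and 1954 in KI and of 2767, 2680.3 and 2825 in WT. The arrays of each group lay close together and the groups far apart. The log2 difference was -0.56 (SE 0.06, adjusted p = 0.0038), so that WT was 1.47 times as high.

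Psap encodes prosaposin, the precursor of the saposins that present lipids to their enzymes, and it was bright on all arrays, at 27654 ± 1892 in KI and 19258 ± 3423 in WT. It rose by 0.54 (SE 0.14, adjusted p = 0.041). Hexa, the alpha subunit of beta-hexosaminidase, averaged 19183 ± 1141 in KI and 13542 ± 1982 in WT and rose by 0.51 (SE 0.12, adjusted p = 0.030). Glb1, the beta-galactosidase, rose by 0.46 (SE 0.10, adjusted p = 0.024) and Asah1, the acid ceramidase, by 0.42 (SE 0.09, adjusted p = 0.020). Gm2a, the activator that hands a ganglioside to beta-hexosaminidase, averaged 8935 ± 716 in KI and 8100.4 ± 1718 in WT, a difference of 0.16 with a 95% interval of -0.26 to 0.59. Smpd1, the acid sphingomyelinase, averaged 1766 ± 91.0 in KI and 1730.4 ± 106 in WT, a difference of 0.03 with an interval of -0.14 to 0.20. Gla, the alpha-galactosidase, averaged 2575 ± 259 in KI and 2090.3 ± 132 in WT and did not pass (0.30, adjusted p = 0.066), although its groups did not overlap.

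Galc and Arsa passed whichever array was left out. Glb1, Hexa, Asah1 and Psap did not pass without KI 1 or KI 3, nor did Hexa, Asah1 and Psap without KI 2, Glb1 and Psap without WT 2 or Hexa without WT 3, with adjusted p from 0.051 to 0.12. Under the older spike-in scaling Galc was still higher (0.81) and Arsa lower (-1.09), Hexa, Glb1, Asah1, Gla, Gm2a and Smpd1 lay below 0, and Psap was at 0.01; the newer one left Psap at 0.33 (adjusted p = 0.062).

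The 4 genes of sterol and phospholipid handling had the highest class median, 0.77. Pla2g15, the lysosomal phospholipase A2, had intensities of 3447, 2594 and 3066 in KI and of 651, 1253 and 1449 in WT. WT 1 was about as far below the other WT arrays as they were below the KI arrays on the log scale. The rise of 1.51 was the largest of the 41 members with all 6 arrays (SE 0.32, adjusted p = 0.023), a 2.85-fold change. Lipa, the acid lipase that releases cholesterol and fatty acids from cholesteryl esters and triglycerides, had intensities of 13628, 12308 and 12723 in KI and of 4375, 7218 and 7052 in WT. The KI arrays lay close together and the WT arrays did not, again because of WT 1. Lipa rose by 1.09 (SE 0.20, adjusted p = 0.017), or 2.12-fold.

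Npc1, the membrane protein through which cholesterol leaves the lysosome, had intensities of 4013, 3580.0 and 3433 in KI and of 2809, 2549 and 2689 in WT, and rose by 0.45 (SE 0.07, adjusted p = 0.012). Here WT 1 was the highest WT array, unlike for most members. Npc2, the soluble carrier that hands cholesterol to Npc1, had intensities of 23324, 22033 and 22576 in KI and of 23356, 24401 and 24782 in WT. KI 1 and WT 1 were nearly equal, and the difference of -0.09 did not pass (adjusted p = 0.16). Without KI 1 and WT 1 together, Npc2 passed as lower (-0.14, adjusted p = 0.045). Lipa and Pla2g15 did not pass without KI 1 or KI 3, nor Pla2g15 without KI 2 or WT 2 (adjusted p from 0.050 to 0.078), and without WT 1 the rise of Pla2g15 was 1.16. Under the older spike-in scaling Pla2g15 was still higher (0.98), Lipa was at 0.56 (adjusted p = 0.055), Npc1 turned to -0.08 and Npc2 was lower (-0.62); the newer one ended the call for Npc1 (adjusted p = 0.085) and called Npc2 lower (-0.30).

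Among proteins that cut peptides and thioesters, 3 of 4 rose (median 0.68). Ppt1, the thioesterase that strips palmitate from proteins, had intensities of 4357, 3282 and 3779.8 in KI and of 1274, 1922 and 1938 in WT. The lowest KI array was well above the highest WT array. It rose by 1.17 (SE 0.20, adjusted p = 0.013), or 2.25-fold. Lgmn, the asparaginyl endopeptidase legumain, had intensities of 21975, 21341 and 22096 in KI and of 8151, 12510.3 and 12020.0 in WT, with the KI arrays within a narrow band and WT 1 below the rest. It rose by 1.03 (SE 0.17, adjusted p = 0.012), or 2.04-fold.

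Tpp1, a tripeptidyl peptidase, averaged 11558 ± 698 in KI and 9155 ± 648 in WT, a smaller rise of 0.34 (SE 0.07, adjusted p = 0.024). Ppt2, a related thioesterase, averaged 2005 ± 167 in KI and 1596 ± 257 in WT and did not pass (0.34, adjusted p = 0.13). Without KI 3, Ppt1, Tpp1 and Lgmn did not pass, nor did Tpp1 without KI 1 or WT 2 (adjusted p from 0.051 to 0.075). Ppt1 was still higher under the older spike-in scaling (0.64), Lgmn was at 0.50 (adjusted p = 0.077), and Tpp1 and Ppt2 turned to -0.19 each; the newer one ended the call for Tpp1.

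The next 3 genes act on DNA, on phosphate esters and on other enzymes. Sumf1, which installs the formylglycine that every sulfatase needs in its active site, had intensities of 2433, 2615 and 2535 in KI and of 1791, 1816 and 2022 in WT. The groups were tight and apart, and Sumf1 rose by 0.43 (SE 0.06, adjusted p = 0.0090), or 1.35-fold. Of the sulfatases among the members that depend on it, Sgsh and Galns rose, Arsa fell, and Arsb and Ids did not pass. Acp2, a lysosomal acid phosphatase, averaged 3091 ± 271 in KI and 1875 ± 321 in WT and rose by 0.73 (SE 0.15, adjusted p = 0.019). Dnase2a, the acid nuclease that degrades engulfed DNA, had intensities of 679.8, 561 and 472 in KI and of 215.9, 351 and 373 in WT. Its groups did not overlap, but each spread widely, and the difference of 0.89 missed the threshold (SE 0.25, adjusted p = 0.052). With genes below the median level left out of the fit Dnase2a passed (adjusted p = 0.021), as did Gaa, Naglu, Gla and Ctns. In that fit 21.3% of genes were higher, against 11.9% with all genes. It adjusts for fewer genes and also refits the variance, and the part of each was not tested. Acp2 did not pass without KI 1, KI 2 or KI 3 (adjusted p from 0.055 to 0.065), and under the older spike-in scaling it was at 0.20 (adjusted p = 0.49) and Sumf1 turned to -0.10; under the newer one Sumf1 was at 0.23 (adjusted p = 0.10).

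**Figure D3:**
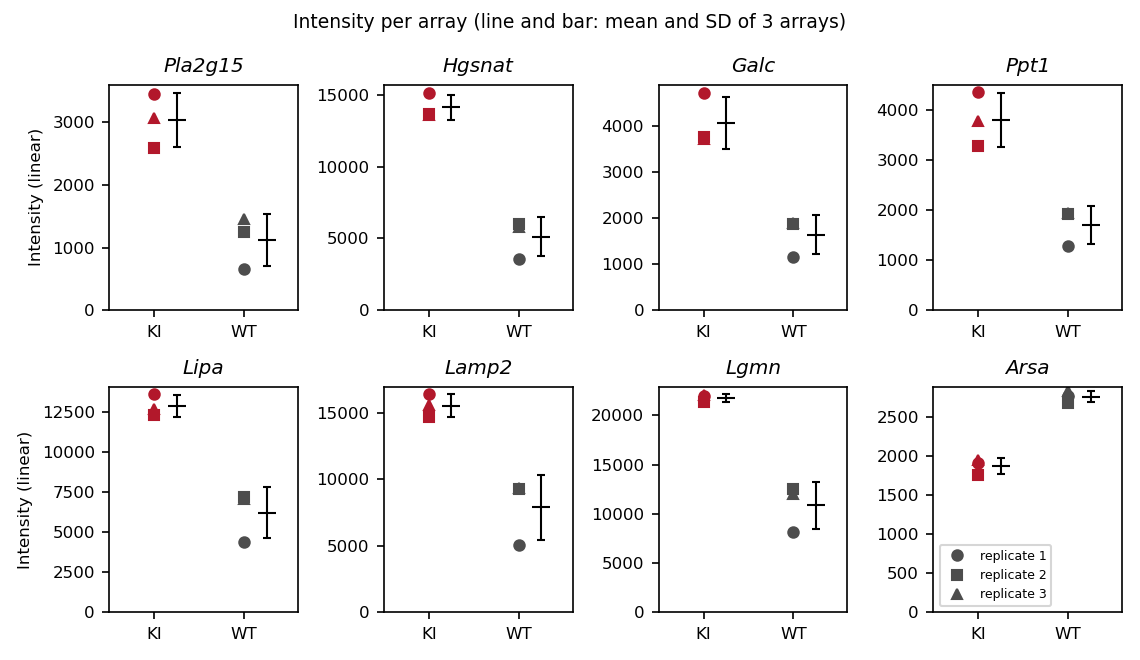
Intensity (linear axis from 0) of the 7 genes that rose at least 2-fold and of Arsa on each KI array (left, red) and WT array (right, grey), with the mean and SD of 3 arrays beside the points; symbols mark the replicate number. No gene shown has overlapping groups, and WT replicate 1 is the lowest point in each of the 7.

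Membrane proteins rose in 7 of 8 cases, with a median of 0.57, where 11.9% of all genes were higher. This was the highest share of any class, next to 4 of 5 for the sugar enzymes of glycoproteins and glycogen. All KI arrays lay above all WT arrays for each of the 8, as for 20.5% of all genes. The same held for every member of the glycoprotein and glycogen, peptide and thioester, and DNA, phosphate and enzyme activation classes. Lamp1 and Lamp2, the heavily glycosylated proteins that line the inside of the membrane, both rose. Lamp2 had intensities of 16369.7, 14665 and 15539 in KI and of 5055, 9260.3 and 9352 in WT. WT 1 lay far below the other WT arrays, which were close to each other. The difference was 1.03 (SE 0.25, adjusted p = 0.034), or 2.04-fold. Lamp1, which had the 4 E-boxes shown above, averaged 24726 ± 740.4 in KI and 18062 ± 2336 in WT and rose by 0.46 (SE 0.10, adjusted p = 0.025).

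Scarb2, the LIMP-2 protein that brings glucocerebrosidase to the lysosome, had intensities of 6837, 4795 and 4871 in KI and of 2448, 2985 and 3642 in WT, with KI 1 apart from the other KI arrays. It rose by 0.86 (SE 0.20, adjusted p = 0.030). Cln3, a membrane protein mutated in juvenile Batten disease, averaged 2021 ± 163 in KI and 1259 ± 180.1 in WT and rose by 0.69 (SE 0.12, adjusted p = 0.015). Mcoln1, the cation channel TRPML1 that lets calcium out of the lysosome, averaged 1505 ± 70.6 in KI and 1124 ± 134 in WT and rose by 0.43 (SE 0.10, adjusted p = 0.030). Laptm4a, a small membrane-spanning protein, rose by 0.55 (SE 0.15, adjusted p = 0.047) and its blood-cell relative Laptm5 by 0.36 (SE 0.10, adjusted p = 0.049). Ctns, the exporter of cystine, averaged 1041 ± 151 in KI and 698 ± 131 in WT and did not pass (0.58, adjusted p = 0.064).

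The membrane calls depended on single arrays. None of the 7 passed without KI 1 or without KI 3, and without KI 2 only Cln3 did (adjusted p of the others from 0.054 to 0.13 over these fits). Of all genes, 6.88% were higher without KI 1, 4.91% without KI 3 and 7.66% without KI 2, against 11.9% with all arrays. Scarb2 and Laptm4a did not pass without WT 1, Lamp2, Scarb2, Mcoln1, Laptm5 and Laptm4a without WT 2, or Laptm5 without WT 3. Under the older spike-in scaling Lamp1 (-0.07), Mcoln1 (-0.10) and Laptm5 (-0.17) lay below 0 and none of the 8 passed; under the newer one Lamp1, Mcoln1, Laptm5 and Laptm4a lost their calls.

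The 41 members had 92 probe sets, with 14 members on 1 probe set and 27 on more. In a fit of all 45037 probe sets, where 8.18% were higher and 10.5% lower, 24 of the 29 rises also passed on the same probe set. Of the 35 further probe sets of the genes that rose, 17 were higher, 0 were lower, and 32 lay above 0. The 3 probe sets of Lipa agreed, with differences of 1.09, 1.59 and 1.33, as did the brightest 3 of Ppt1, with 1.17, 1.13 and 0.76, and the 3 of Acp2 (0.73, 0.53 and 0.73). The 4 of Lamp2 lay between 0.69 and 1.04, of which 2 passed.

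Some genes gave opposing values. A dimmer probe set of Gla rose by 1.41 (adjusted p = 0.017 over probe sets), where the brightest had 0.30, and with the mean over all its probe sets Gla passed (0.60, adjusted p = 0.0065). The other probe set of Gusb had -0.03, and Gusb did not pass with such a mean (0.13). The other probe set of Galns read 15.8 to 18.2 in KI and 17.1 to 19.4 in WT, about the floor of 16, so the smaller mean of Galns (0.14, not passing) averages in background. Dim probe sets also enter the means of Galc (0.62) and Ppt1 (0.66), and that of Sgsh was 0.60; these kept their calls. A dimmer probe set of Smpd1 fell by 0.41 (adjusted p = 0.031). The 4 probe sets of Npc2 had -0.09, -0.02, 0.65 and -0.49, of which the last passed. The rise of Laptm5 rested on probe sets that can match several transcripts, and its 1 remaining probe set had -0.16. Hexa, Psap, Lamp1, Gaa, Smpd1 and Dnase2a had only probe sets of that kind.

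**Figure D4:**
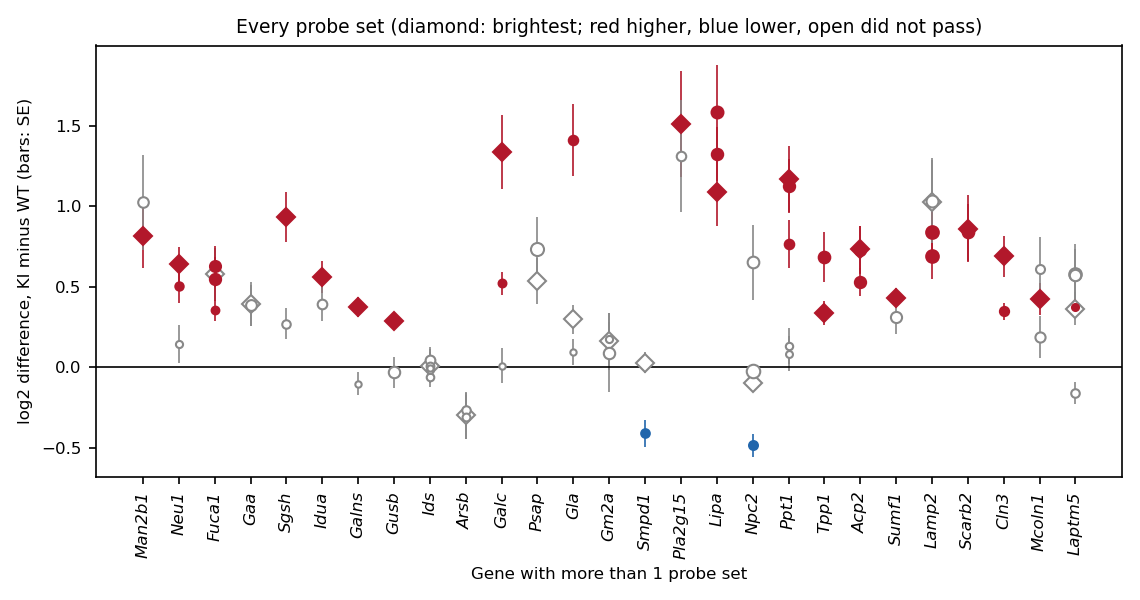
Log2 difference, KI minus WT, with its SE for every probe set of the 27 members that have more than 1, from a fit of all 45037 probe sets. Diamonds mark the brightest probe set, red points were higher in KI, blue points were lower and open points did not pass; Lipa and Acp2 agree over all probe sets, while Npc2 spans -0.49 to 0.65.

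Other genes of the lysosome moved in part with the members. From 4 lists of 56 further genes, chosen with earlier results of these data known, 49 were measured, and the expression of the rest is not analysed here. Of the 49, 22 were higher (44.9%), 4 lower (8.16%) and 23 did not pass, with a median of 0.31. Of all genes, 11.9% were higher and 14.9% lower. Under the newer spike-in scaling 16 of the 49 were higher and 8 lower, where 7.04% of all genes were higher and 27.2% lower. Under the older one 4 were higher and 8 lower, where 2.31% of all genes were higher and 45.1% lower. The counts and directions of the 4 lists below therefore hold for the deposited values. Of 9 luminal proteins 4 were higher (44.4%) and 0 lower, led by the peptidase Dpp7 (0.51, adjusted p = 0.0043), the secreted glycoprotein Creg1 (0.50, adjusted p = 0.010) and Ggh, which trims folate tails (0.65, adjusted p = 0.014). Of 12 membrane and transport genes 7 were higher (58.3%) and 0 lower. Among them Slc11a1, the divalent metal transporter NRAMP1 of phagocytes, averaged 6521 ± 608 in KI and 2542 ± 491 in WT and rose by 1.37 (SE 0.16, adjusted p = 0.0052). The amino acid transporter Slc36a1 rose by 1.35 (adjusted p = 0.0081) and Ostm1, the partner of the chloride transporter Clcn7, by 0.42 (adjusted p = 0.0044). Clcn7 itself, which takes part in acidifying the resorption space of osteoclasts, had -0.17 (adjusted p = 0.22).

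Genes that sort enzymes to lysosomes went both ways, with 4 of 11 higher (36.4%) and 3 lower (27.3%), where 11.9% and 14.9% of all genes were. Among genes above the median level, where these lie, 17.8% were higher and 23.1% lower. The share of lower genes was near the last of these. The sorting receptor Sort1 averaged 1239.9 ± 78.2 in KI and 466 ± 86.6 in WT and rose by 1.43 (SE 0.15, adjusted p = 0.0042). The mannose 6-phosphate receptor gene M6pr averaged 10277 ± 347 in KI and 14008 ± 347 in WT and fell by 0.45 (SE 0.04, adjusted p = 0.0032), and the adaptor Gga2 fell by 0.57 (SE 0.05, adjusted p = 0.0028). The third gene that fell was Igf2r, the other mannose 6-phosphate receptor (-0.51, adjusted p = 0.033).

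Of 17 transcriptional and nutrient-sensing regulators 7 were higher (41.2%) and 1 lower (5.88%), where 11.9% and 14.9% of all genes were. Tfe3 rose by 0.53 (SE 0.12, adjusted p = 0.028), while Tfeb had 0.31 (adjusted p = 0.21), Mitf 0.06 (adjusted p = 0.77) and Tfec 0.12 (adjusted p = 0.47), none of which passed. Lamtor4, a part of the Ragulator complex on the lysosome surface, rose by 0.60 (SE 0.07, adjusted p = 0.0046) and the small GTPase Rragc by 0.74 (SE 0.11, adjusted p = 0.0096). Mtor, the kinase that this complex recruits, averaged 972 ± 16.9 in KI and 1255 ± 56.0 in WT and fell by 0.37 (SE 0.05, adjusted p = 0.0082). Over the further genes of all lists, TCACGTG stood in 11 of the 41 windows found (26.8%), against 4.29% of all genes with a window. These windows include those of Cd63 and Hyal1, which were not measured and had no match.

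**Figure D5:**
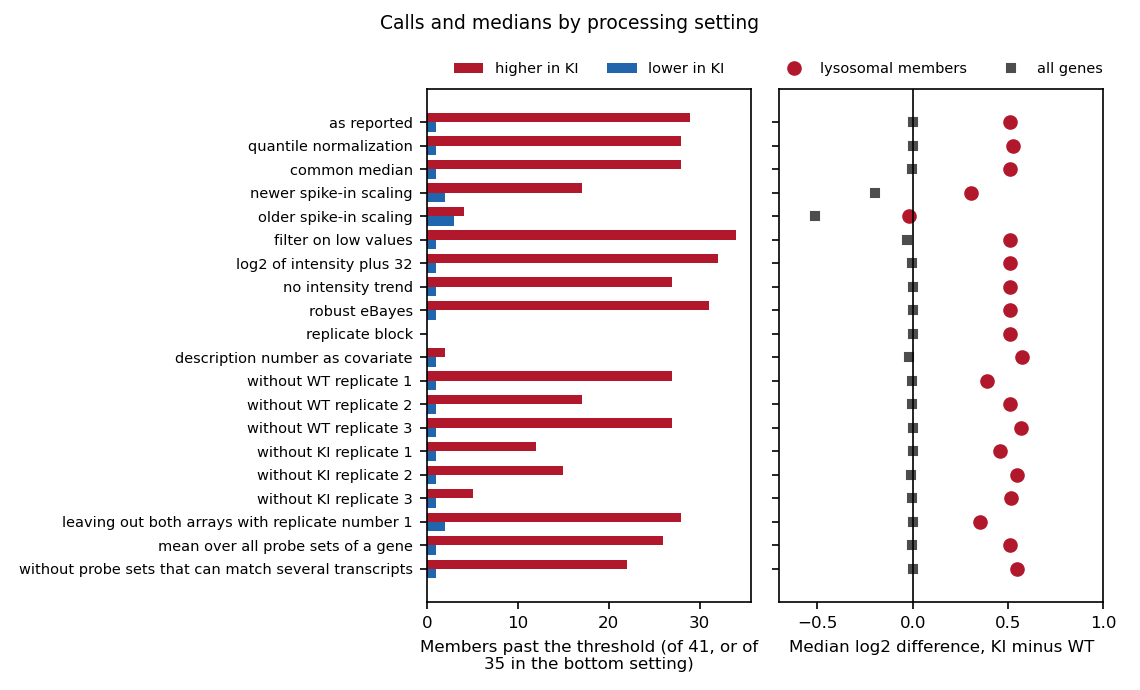
Left, number of members past the threshold, higher (red) and lower (blue) in KI, under each processing setting, of 41 members or of 35 in the bottom setting; right, median log2 difference, KI minus WT, of the members (red circles) and of all genes (grey squares). The counts of higher members run from 0 with the replicate block to 34 with the filter on low values. In these fits 0.80% and 21.3% of genes were higher. Only the older spike-in scaling puts the members' median below 0 (-0.02, with all genes at -0.51).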

How the data were processed

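RNA was labelled with biotin and hybridised to Affymetrix mouse arrays, per the labels' protocols. In the deposited table each probe set had 1 linear intensity per array, made with Affymetrix Expression Console per the submitters' processing notes, with version, summarisation and scaling not given in the sources used here. Array medians lay between 83.0 and 84.8, and the values were used without further normalization. Of 45101 probe sets, 64 controls were left out and 34945 carried 1 gene symbol in the platform annotation. Intensities were floored at 16 (5.47% of values lay below), log2 transformed, and reduced to 1 probe set per gene, the one with the highest mean over the 6 arrays. Differences came from lmFit and eBayes with trend in limma 3.58.1 (R 4.3.3), with Benjamini-Hochberg adjustment over 18193 genes and a threshold of 0.05; the same steps were tested on simulated data. The number of arrays, 3 per group, limits the precision.

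The members, classes, further lists and markers were chosen with earlier results of these data known. All members past the threshold are named, the others by class, and up to 3 genes of each further list by smallest p; other further genes were chosen after their values were seen. Between same-numbered KI and WT arrays, deviations from the group means correlated at -0.48, -0.39 and -0.36. With 3 arrays per group these deviations are not independent, so the correlations cannot decide whether the numbers pair the arrays. Alternatives were other scalings, spike-in scalings (9 probe sets each), a filter, other variance priors, an offset of 32 before the log in place of the floor, other probe set choices, a covariate, a replicate block and leaving out arrays.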

Additional observations from a re-analysis of the deposited data

How the results depend on the processing

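Of 773 member values over the 19 alternatives, those of the genes that rose kept direction and call in 369 cases, kept direction without passing in 166 and changed sign in 13; Arsa was below 0 in each alternative and lost its call in 1. Counts of members higher in KI, 29 as reported, were 17 under the newer spike-in scaling and 4 under the older. They were 2 with the description number as a covariate and 5 to 27 when 1 array was left out. Members lower were 2 under the newer scaling, 3 under the older and 2 without both arrays numbered 1. Of all genes, 11.9% were higher as reported, 7.04% under the newer scaling and 2.31% under the older. That share was 3.89% with the covariate and 4.91% to 11.0% with 1 array left out. Lower were 14.9% of all genes as reported, 27.2% under the newer scaling and 45.1% under the older. All genes past the threshold, 4868 as reported, were 8619 under the older scaling, 1671 with the covariate and 2011 to 4381 with 1 array left out, and the further lysosome genes, 26 as reported (22 higher, 4 lower), were 12 (4 higher, 8 lower), 10 (8 and 2) and 14 to 24; the newer scaling gave 16 higher and 8 lower. With the replicate block 0 members were higher and 0 lower, and 1 further lysosome gene passed, of 344 genes in all. In that fit 0.80% of all genes were higher and 1.09% lower. No array correlated best with the one of its own number, but this cannot decide whether the numbers pair the arrays. Other settings gave 22 to 34 members higher. Under the older scaling 18 members changed sign: Gaa -0.14, Manba -0.23, Gusb -0.24, Galns -0.16, Ids -0.52, Gla -0.23, Glb1 -0.072, Hexa -0.018, Asah1 -0.11, Smpd1 -0.50, Gm2a -0.37, Npc1 -0.078, Ppt2 -0.19, Tpp1 -0.19, Sumf1 -0.099, Lamp1 -0.069, Mcoln1 -0.10 and Laptm5 -0.17. Under the newer one Ids was at -0.20, Smpd1 at -0.18 and Gm2a at -0.044, and without both arrays numbered 1 they were at -0.13, -0.033 and -0.082. The mean over probe sets gave -0.0042 for Ids, -0.19 for Smpd1 and 0.012 for Npc2. With 1 array left out, Ids ran from -0.077 (without WT 1; -0.0045 without WT 2 and -0.043 without KI 1) to 0.10, Gm2a from -0.021 (without WT 1) to 0.29 and Smpd1 from -0.011 (without KI 1) to 0.080. Laptm5 was at -0.16 on the 1 probe set left to it when ambiguous ones were dropped. The cause of these changes was not tested.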
